A study of Mus musculus with 6 samples.

Results

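Interferon-stimulated antiviral genes and their regulators were followed in RNA-seq libraries of cells labelled as liver lymphatic endothelial cells. The set was a list of 40 gene symbols that covers antiviral effectors, nucleic acid sensors and signalling regulators. It was chosen with earlier results of these data known, so its shares set beside those of all genes are descriptions and not tests. Guanylate-binding and immunity-related GTPases, genes of the major histocompatibility complex and chemokines were kept out of it. Of the 40 symbols, 39 were found among the 22027 genes of the deposited table, and all 39 were abundant enough to be tested. The remaining symbol, Mx2, is a polymorphic pseudogene in GENCODE mouse release 21 and was not analysed here.

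All mice were IL7-GFP reporter animals (green fluorescence driven by the gene for interleukin 7, Il7), per the labels, and 20000 to 50000 sorted cells per sample went into TRIzol for extraction. The sham group held 3 libraries from mice without ischemia-reperfusion injury. The I/R group held 3 libraries labelled day 3 of ischemia/reperfusion, an injury in which blood flow is stopped and then restored. The column names of the deposited table mark the sorted cells of both groups as GFP-positive. No source used here gives strain, age, sham time point, any other gating marker or the animals behind each sample, so a p-value here reflects the spread among these samples alone, which may be technical. Values are normalised counts, that is, counts that the authors divided by 1 factor per library, and the libraries held 6297308 to 17086746 counts.

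Type I interferons are secreted when cells sense foreign or misplaced nucleic acid, and they act through the receptor Ifnar1 and Ifnar2 and the kinases Jak1 and Tyk2. These kinases activate transcription factors, among them Stat2, which joins Irf9 at a short element in the promoters of the target genes. In the liver, macrophages and endothelial cells both respond to interferon, and many of the target genes can also be induced directly by interferon regulatory factors during nucleic acid sensing.

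Promoter sequences are shown first, because they are what many of these genes share apart from the list itself. RefSeq promoters (build GRCm38.p6, from 250 bases before to 50 bases after the start of transcription) matched 32 of the 40 members. The core of the interferon-stimulated response element, GAAA and GAAA with any 2 bases between them, was searched on both strands. It occurred in at least 1 promoter of 13 of these 32 members, or 40.6%, and in 3.99% of all 27025 genes in the promoter table. In 7 member promoters there was more than 1 match. The lines show the stretches for some of the members described later, of which Rsad2 and Stat2 have 1 match each and the others more, 5′ to 3′ on the strand of the gene, with matches in capitals (TTTC and TTTC with 2 bases between them is the same element on the other strand, and overlapping matches run together).
Isg15, chr4:156200860-156200911, minus strand: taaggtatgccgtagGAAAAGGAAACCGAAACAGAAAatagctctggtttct
Ifit1, chr19:34640770-34640828, plus strand: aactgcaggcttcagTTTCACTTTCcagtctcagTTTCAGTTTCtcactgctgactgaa
Ifit3, chr19:34583358-34583431, plus strand: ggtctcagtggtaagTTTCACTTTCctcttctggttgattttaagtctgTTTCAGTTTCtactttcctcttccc
Ifit3b, chr19:34607754-34607827, plus strand: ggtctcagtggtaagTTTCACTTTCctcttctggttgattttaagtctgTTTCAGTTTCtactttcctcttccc
Rsad2, chr12:26456548-26456587, minus strand: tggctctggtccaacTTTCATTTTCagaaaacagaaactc
Stat2, chr10:128270261-128270300, plus strand: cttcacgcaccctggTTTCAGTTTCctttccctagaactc
Trim26, chr17:36836971-36837016, plus strand: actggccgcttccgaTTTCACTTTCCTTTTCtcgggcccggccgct

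In Isg15, 3 overlapping matches began 78, 72 and 66 bases before the start of transcription. Ifit3 and Ifit3b carried the same 74 bases around their pair of matches, with 0 differences. The match of Stat2, a gene whose product acts through this element, lay 222 bases upstream, and that of Ifih1 lay 32 bases downstream of the start. No match was found in the window of Helz2, Irf1, Irf7 or Irf9.

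The gamma-activated site, TTCNNNGAA, which reads the same on both strands and is an element of interferon gamma responses, was found in 8 of the 32 members (25%) against 9.55% of all genes. Irf1 had 1, beginning 90 bases before the start, shown here with the site in capitals. Both motifs were present in 3 members and overlapped each other in 1 promoter, that of Bst2.
Irf1, chr11:53769909-53769947, plus strand: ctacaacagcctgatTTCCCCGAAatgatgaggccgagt

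A match describes these letters and is no evidence of binding. The 13 members with the response element core had a median log2 fold change of -0.23 between I/R and sham, and the 19 without it in the window also -0.23.

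Several members are also neighbours. On chromosome 19 the genes Ifit2, Ifit3, Ifit3b and Ifit1 follow one another on the plus strand, from 34550694 to 34650009 (GRCm38). On chromosome 12 Rsad2 and Cmpk2 diverge with a gap of 12751 bases, on chromosome 5 Oasl2 lies 11005 bases from Oasl1 and Oas2 3244 bases from Oas3, and on chromosome 16 Dtx3l and Parp9 overlap head to head. The overlap of Dtx3l with Parp9, of Irf9 with Rnf31, of Irf7 with Phrf1, of Irf1 with Gm17334 and of Adar with Chrnb2 makes their counts uncertain, since no source says how such reads were assigned. The near-identical copies Ifit3 and Ifit3b, and Oas1a with its paralogs, are uncertain for the same reason.

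Marker genes of several cell types were read beside the labelled cell type. All 8 lymphatic endothelial markers, among them Prox1, Lyve1, Flt4 and Pdpn, passed the abundance filter, and so did all 12 Kupffer cell (resident liver macrophage) markers, among them Clec4f, Cd5l and Vsig4. The summed lymphatic markers ranged from 9230 to 32206 in sham and from 29449.9 to 48095 in I/R libraries, and the summed Kupffer cell markers from 235329 to 271197 and from 163235 to 273664. In every library the Kupffer cell sum was above the lymphatic sum, with 258857 against 9230 in sham library 3 and 163235 against 48095 in I/R library 1. The members' values therefore cannot be assigned to the labelled cells alone. Of 6 plasmacytoid dendritic cell markers, cells known for interferon secretion, 2 passed the filter, Cox6a2 was at 0 everywhere and Siglech was at 0 in all sham libraries and in I/R library 2. None of the 6 T and NK cell markers in the table passed the filter, and Cd3e and Nkg7 were at 0 everywhere. Summed recruited monocyte markers ranged from 1048 to 2010 in sham and from 1759 to 2085 in I/R libraries, hepatocyte markers from 39730.0 to 68858 and from 41400.0 to 57661, stellate cell markers from 1497 to 6194 and from 4833 to 6829, and pan-endothelial markers from 14403 to 21126 and from 15623 to 23326. Conventional dendritic cell, neutrophil and sinusoidal endothelial sums also overlapped between the groups. Reln was counted among both the lymphatic and the stellate cell markers.

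Several of these lists differed in direction from the members. With all 6 libraries, all 8 lymphatic markers had a positive log2 fold change in I/R, with a median of 1.01. So had 5 of 6 pan-endothelial markers (0.51), 4 of 6 stellate cell markers (0.61) and 5 of 6 recruited monocyte markers (1.24). In that fit 0 of them passed in limma. Without sham library 1 the lymphatic and pan-endothelial counts stayed the same, with medians of 1.26 and 0.49. All 6 stellate cell markers were then positive, with a median of 1.23. Of these, Col1a1 passed in limma (1.56, adjusted p = 0.0458), where 0.164% of all tested genes did. Of the 6 recruited monocyte markers, 3 were negative without sham library 1. Among the recruited monocyte markers, Ccr2 was at 44.0 to 83.7 in sham and at 237 to 429 in I/R libraries, and Chil3 at 0 to 25.1 and at 116 to 231. The part of cell makeup in the members' values was not tested. In such a mixture fewer cells of a type and less RNA per cell cannot be told apart.

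The members ranged widely in abundance. Per kilobase of annotated exon, the highest mean normalised counts over the 6 libraries were 4006 for Rsad2, 3440 for Isg15, 3255 for Oasl1 and 2009 for Ifit2, and the lowest were 40.8 for Ifi44 and 44.7 for Isg20. Rnf213, the longest transcript of the set, ranked 30 among all genes by mean value before correction for length, with Rsad2 at 47 and Helz2 at 48. The 39 members together took 1.913% of all normalised counts in sham library 1, 1.368% and 1.315% in sham libraries 2 and 3, and 1.225%, 1.152% and 1.135% in I/R libraries 1, 2 and 3. In this summed share, in which the most abundant members weigh most, sham library 1 stood above the other 5. Every I/R library was below every sham library in the same sum, which does not describe each member.

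Sham library 1 stood apart from the other libraries for a subset of the members, before any comparison of the groups. It held the highest value for 21 of the 39 members, against 20.3% of all tested genes, and for 12 members its value was at least 1.5 times that of every other library, against 2.85% of all tested genes. In each of the other 5 libraries 0 members stood so far above the rest. The 12 were Ifit1, Ifit2, Ifit3, Ifit3b, Oasl1, Mx1, Rsad2, Cmpk2, Isg15, Herc6, Ifih1 and Parp14, picked here by their values. Fold changes are therefore given with and without this library.

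**Figure D1:**
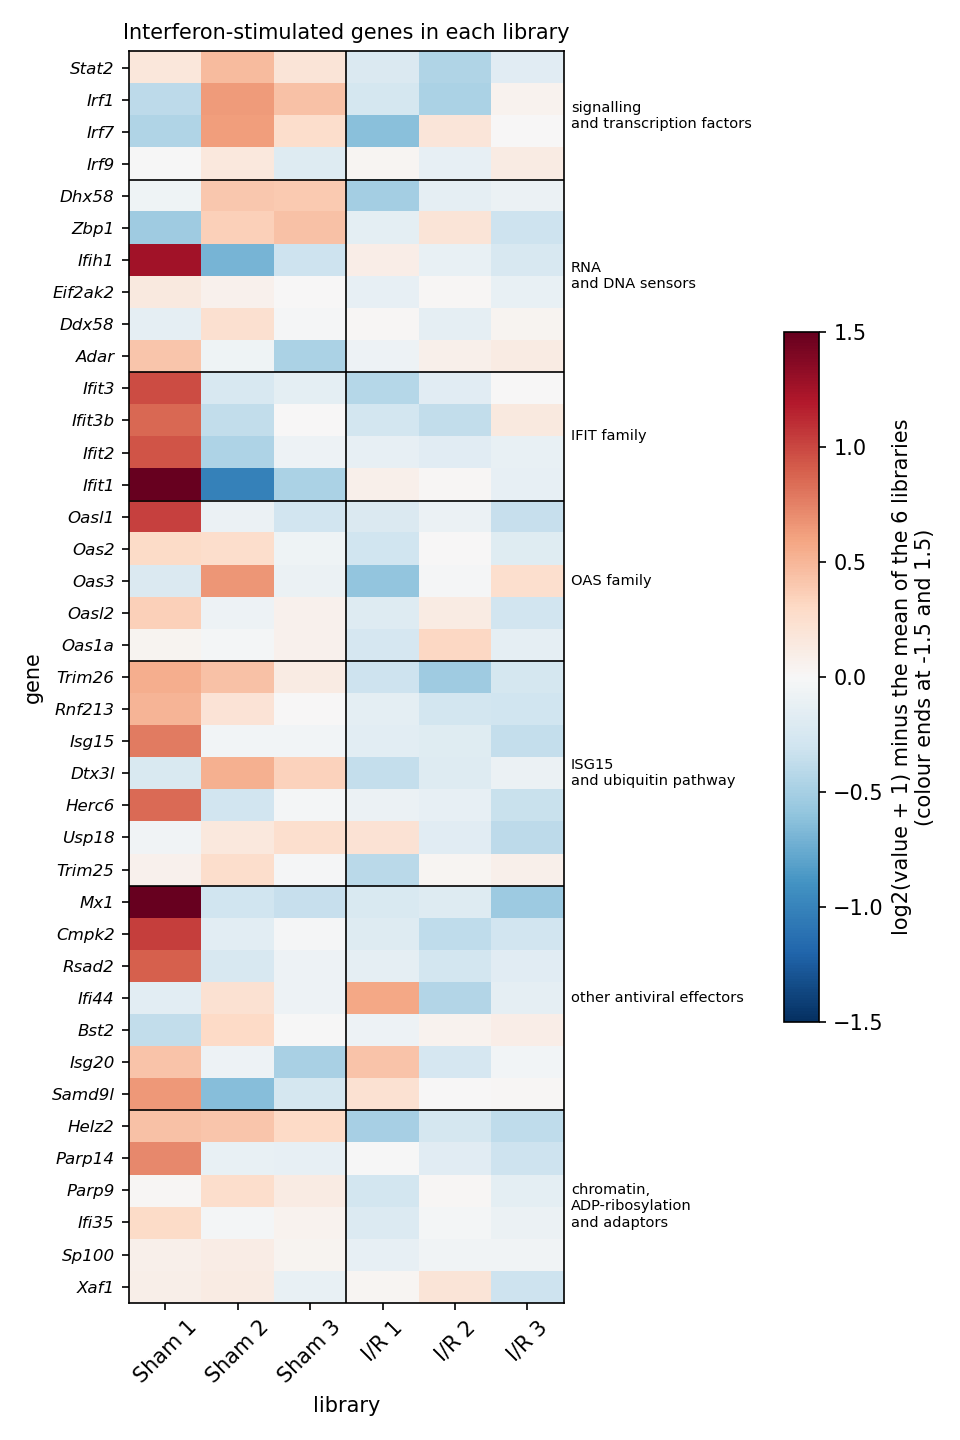
Colour map of the 39 tested members (rows, by role) in 6 libraries (columns), where colour is log2(normalised count + 1) minus the mean of the 6 libraries for that gene. The IFIT family, Oasl1, Mx1, Rsad2, Cmpk2 and Ifih1 are darkest red in sham library 1, while Irf1, Irf7 and Zbp1 are blue there and red in sham libraries 2 and 3.

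Between the I/R and sham groups, 0 of the 39 members passed in limma at an adjusted p of 0.05, a threshold that 4 of 13434 tested genes (0.0298%) passed, all of them higher. At an unadjusted p under 0.05 limma found 5 members lower and 0 higher, where 1.48% of all tested genes were lower and 2.96% higher. On the recovered counts edgeR called 0 members (0.00744% of genes called) and DESeq2 called 1, Helz2, which was lower (0.252% of genes called, 0.042% lower). Most members nevertheless lay on the lower side. The log2 fold change was negative for 33 of 39 members, or 84.6%, against 47.9% of all tested genes, and the median was -0.27 against 0.02 for all genes.

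The groups did not overlap for 10 members, all of them lower after I/R, which is 25.6% of the members against 4.48% of all tested genes. They were Stat2, Dhx58, Isg15, Trim26, Rnf213, Cmpk2, Helz2, Parp9, Sp100 and Ifi35. For 0 members did every I/R value exceed every sham value, where 5.11% of tested genes did. With each library scaled to equal totals the number without overlap was 6, or 15.4% against 3.07% of all tested genes, and the genes at an unadjusted p under 0.05 went from 397 higher and 199 lower to 490 higher and 130 lower.

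**Figure D2:**
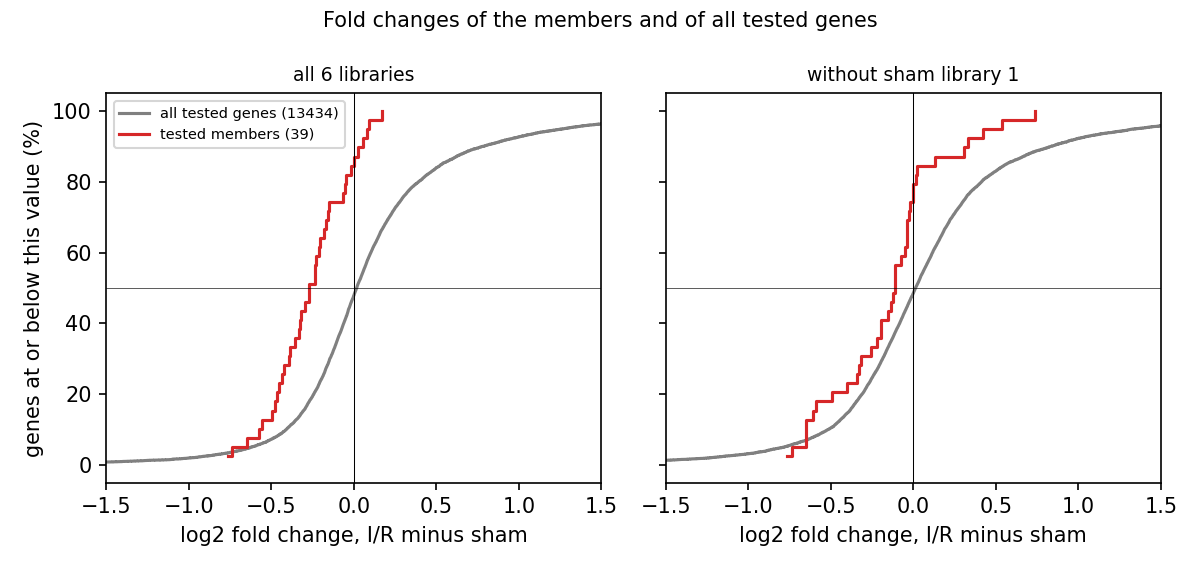
Cumulative share of genes (vertical axis, percent) at or below each log2 fold change of I/R minus sham (horizontal axis) for the 39 tested members and all 13434 tested genes, with 6 libraries (left) and without sham library 1 (right). Over most of its range the curve of the members lies to the left, with medians of -0.27 and -0.11 against 0.02 and 0.01 for all genes.

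Without sham library 1 the median of the members was -0.11 against 0.01 for all genes, with 31 of 39 negative against 48.6% of all tested genes. Groups did not overlap for 14 members on the lower side, or 35.9% against 11.8% of genes, and for 3 on the higher side, or 7.69% against 12.3% of genes, namely Ifit1, Ifih1 and Samd9l. In limma 0 members passed then, where 0.164% of genes did, with 8 lower and 2 higher at an unadjusted p under 0.05 (2.81% and 5.17% of genes).

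The I/R libraries were close to one another. The range of the 3 I/R values on the log2 scale had a median of 0.28 over the members, against 0.57 over all tested genes, while that of the 3 sham values was 0.77 against 0.71. The sham range was the wider one for 31 of 39 members, or 79.5%, against 59.2% of all tested genes. All tested genes, with a mean of at least 10, were not matched in abundance to the members, whose means ran from 83.1 to 23100.

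Among the signalling and transcription factors, Stat2 was lower in every I/R library, while Irf9 was at the same level in both groups. Stat2 was at 1012, 1255 and 1030 in sham libraries 1 to 3 and at 779, 660 and 803 in I/R libraries 1 to 3. The groups did not overlap, and the difference on the log2 scale was -0.55 (SE 0.18, 95% interval -0.96 to -0.15) with an adjusted p of 0.985 in limma. Irf9, its DNA-binding partner, was at 715, 804 and 631 in sham and at 735, 660 and 785 in I/R libraries, and its 95% interval ran from -0.39 to 0.43. All its values lay within the same span, and the sign of its change (0.02) turned without sham library 3 or I/R library 3.

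Irf1 and Irf7 differed first of all within the sham group. Irf1, a transcription factor induced by both interferon types, was at 3823, 7833 and 6782 in sham and at 4183, 3614 and 5204 in I/R libraries. Sham library 1 was within the I/R range and the other sham libraries were above it, with a difference of -0.46 (SE 0.26) on the log2 scale, or -0.77 (SE 0.20) and an adjusted p of 0.279 in limma without sham library 1. In DESeq2 without that library Irf1 passed (adjusted p = 0.0219, 1.26% of genes called), a fit chosen after the data were seen. Irf7, the amplifier of type I interferon transcription, had the same order, with 2211, 4650 and 3617 in sham and 1951, 3411 and 3024 in I/R libraries. Its log2 fold change was -0.30 (SE 0.29), or -0.59 (SE 0.25) without sham library 1. Among the sham libraries, Irf1 and Irf7 were lowest in the library where the IFIT genes were high.

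**Figure D3:**
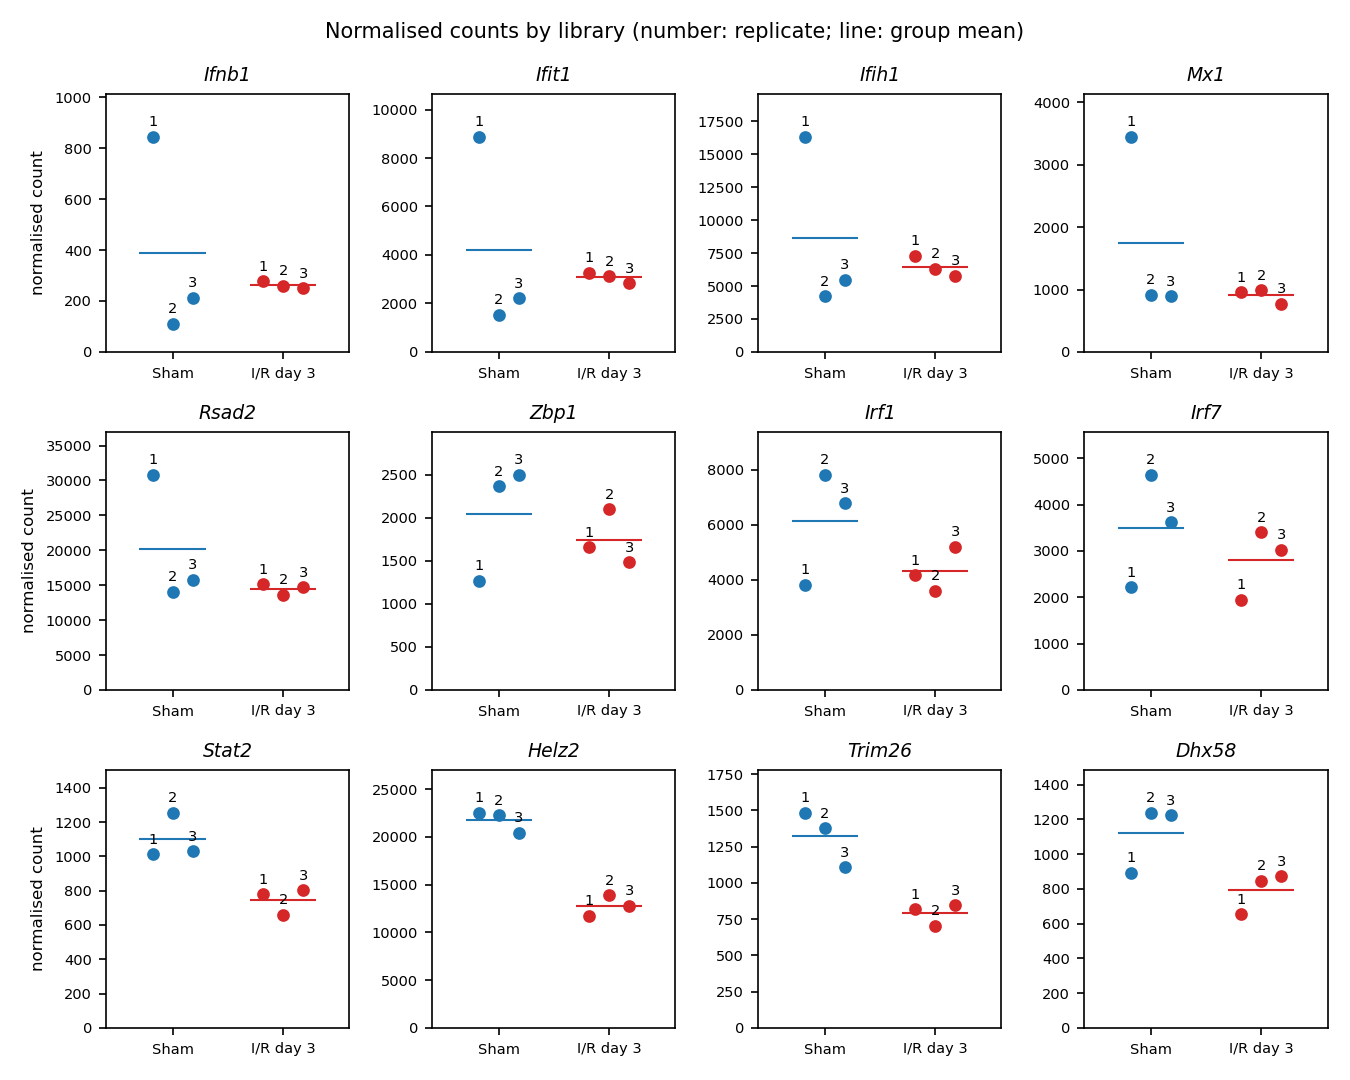
Normalised counts (vertical axes, from 0) of 12 genes in 3 sham and 3 I/R libraries, where points are libraries labelled with their replicate number and lines are group means. Sham library 1 is far above the rest for Ifnb1, Ifit1, Ifih1, Mx1 and Rsad2 and below the other sham libraries for Zbp1, Irf1 and Irf7, while Stat2, Helz2, Trim26 and Dhx58 separate the groups in all 6 libraries.

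The sensors of foreign nucleic acid had no common pattern. Dhx58, a helicase of the RIG-I family that lacks the signalling domain, was at 895, 1240 and 1226 in sham and at 654, 847 and 874 in I/R libraries. All I/R libraries were below all sham libraries (-0.50 on the log2 scale, SE 0.20, with an adjusted p of 0.985 in limma). Ddx58, which encodes RIG-I itself, had -0.05 (95% interval -0.46 to 0.35), and its sign turned when single libraries were left out.

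Ifih1, the sensor of long double-stranded RNA also called MDA5, was at 16338, 4218 and 5475 in sham and at 7297, 6317 and 5767 in I/R libraries. Sham library 1 was far above any other, at 3.37 times the mean of the other sham libraries, while every I/R library was above sham libraries 2 and 3. Its log2 difference was -0.17 (SE 0.41), and 0.42 (SE 0.19) with an adjusted p of 0.628 in limma without sham library 1. Zbp1, a sensor of Z-form nucleic acids, went the other way, with 1266 in sham library 1, 2363 and 2500 in sham libraries 2 and 3, and 1657, 2098 and 1479 in I/R libraries. Eif2ak2, the kinase PKR that stops translation, was steady, at 660 to 725 in sham and 603 to 661 in I/R libraries. Adar, which edits adenosine to inosine in double-stranded RNA, was at 1424, 1022 and 765 in sham and at 1012, 1120 and 1156 in I/R libraries, so that the groups overlapped and its positive change of 0.08 turned negative without sham library 3.

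The IFIT family, whose products bind viral RNA and block its translation, gave the clearest split between sham library 1 and the rest. Ifit1 was at 8884, 1527 and 2220 in sham and at 3262, 3133 and 2828 in I/R libraries. Sham library 1 was 4.74 times the mean of the other sham libraries, and the I/R libraries lay in between. In limma the difference was -0.02 on the log2 scale (SE 0.50, adjusted p = 0.999), and 0.74 (SE 0.20, adjusted p = 0.301) without sham library 1. In DESeq2 without that library the adjusted p was 0.0583.

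Ifit2, Ifit3 and Ifit3b shared the peak in sham library 1, at 2.29, 2.25 and 2.05 times the mean of the other sham libraries, but not the order of the rest. Ifit2 was at 14355, 5444 and 7095 in sham and at 6891, 6644 and 6899 in I/R libraries. The I/R values lay between those of sham libraries 2 and 3, and those of Ifit3 (1388 to 1883) and Ifit3b (276 to 397) overlapped them too. Without sham library 1 the log2 fold changes of these 3 genes were 0.13, -0.005 and 0.014, against -0.27, -0.39 and -0.34 with it.

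In the OAS family, enzymes that make short oligoadenylates to activate RNase L, and their relatives, Oasl1 followed the IFIT pattern and the others did not. Oasl1, which in mouse limits the translation of Irf7, was at 16291, 7482 and 6542 in sham and at 6885, 7487 and 6251 in I/R libraries. Apart from sham library 1 all its values lay close together, and the log2 fold change was -0.44 (SE 0.30) with that library and -0.03 without it. Its neighbour Oasl2 was at 1701, 1259 and 1391 in sham and 1165, 1451 and 1087 in I/R libraries. Oas2 was at 1136, 1115 and 888 in sham and at 756, 936 and 819 in I/R libraries, with a log2 fold change of -0.32 (SE 0.18), and the groups overlapped by 1 library on each side. For Oas1a and Oas3 the changes were -0.05 and -0.23, with signs that turned when I/R library 1 was left out.

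In the ISG15 and ubiquitin pathway all 7 members had a negative log2 fold change, against 47.9% of all tested genes, and 0 passed in limma. The median was -0.43, or -0.32 without sham library 1. Trim26, a ubiquitin ligase of the TRIM family on chromosome 17 (36837134 to 36859398, plus strand), was at 1485, 1375 and 1108 in sham and at 817, 704 and 848 in I/R libraries. The groups did not overlap, and in limma Trim26 differed by -0.74 on the log2 scale (SE 0.18, 95% interval -1.15 to -0.33, adjusted p = 0.675). Rnf213, a very large ubiquitin ligase with an ATPase core, was at 32237, 26085 and 22663 in sham and at 20518, 18631 and 18468 in I/R libraries, again without overlap (-0.48 on the log2 scale, SE 0.20, with an adjusted p of 0.985 in limma).

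Isg15, the ubiquitin-like modifier that gives the pathway its name, was at 4295, 2441 and 2446 in sham and at 2252, 2212 and 1957 in I/R libraries. Every I/R value was lower, but most of the distance came from sham library 1, with a log2 fold change of -0.46 (SE 0.23) that was -0.19 without it. Herc6, the ligase that attaches Isg15 in mouse, had -0.36, and -0.02 without sham library 1, where it was at 2037 against 892 to 1107 in the other libraries. Usp18, the protease that removes Isg15 and also blocks the interferon receptor, was at 301, 348 and 370 in sham and at 362, 277 and 237 in I/R libraries. It overlapped between the groups (-0.24, SE 0.24) and, unlike Isg15 and Herc6, was not raised in sham library 1.

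Dtx3l, a ubiquitin ligase that pairs with Parp9, was at 1369, 2328 and 2040 in sham and at 1261, 1403 and 1513 in I/R libraries. As for Irf1, only sham libraries 2 and 3 were above the I/R range, and limma gave -0.43 on the log2 scale (SE 0.21), or -0.65 (SE 0.17, adjusted p = 0.297) without sham library 1. Trim25, the ligase that activates RIG-I, had -0.20 (SE 0.19), with I/R library 1 at 7862 and the other libraries between 10262 and 12545.

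Among the chromatin, ADP-ribosylation and adaptor genes all 6 had a negative log2 fold change, against 47.9% of all tested genes, and 4 did not overlap between the groups, against 4.48%, while 0 passed in limma. Helz2, a helicase and nuclear receptor coactivator on chromosome 2 (181227615 to 181242027, minus strand), was the most separated member. It was at 22553, 22259 and 20422 in sham and at 11766, 13893 and 12785 in I/R libraries, a mean 41.1% lower. Its log2 fold change was -0.76 (SE 0.18, 95% interval -1.16 to -0.37), with an adjusted p of 0.571 in limma and 0.000933 in DESeq2, and it was -0.74 without sham library 1.

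Parp9, the partner of Dtx3l, was at 939, 1107 and 1010 in sham and at 764, 933 and 835 in I/R libraries (-0.27, SE 0.17). Sp100, a component of nuclear bodies, differed little but without overlap, at 1390, 1429 and 1365 in sham and 1214, 1274 and 1272 in I/R libraries (-0.15, SE 0.16). Ifi35, an adaptor that binds Nmi, was at 699, 563.4 and 596 in sham and at 496, 563.2 and 540 in I/R libraries, so that its groups were separated by a gap far below the spread within them. Parp14, a mono-ADP-ribosyltransferase, reached 12054 in sham library 1 and spanned 5864 to 7287 elsewhere, and Xaf1, a proapoptotic partner of XIAP, had -0.06.

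The other antiviral effectors held genes of both kinds. Mx1, a dynamin-like GTPase, was at 3451 in sham library 1 and at 918 and 890 in sham libraries 2 and 3, against 960, 988 and 771 in I/R libraries. The lower I/R mean (-0.65, SE 0.43) rested on sham library 1, and was -0.005 without it. Rsad2, or viperin, which makes a chain-terminating nucleotide, was at 30839, 14078 and 15761 in sham and at 15128, 13658 and 14741 in I/R libraries (-0.39, SE 0.28, and -0.04 without sham library 1). Its neighbour Cmpk2, a mitochondrial nucleotide kinase, was at 1041, 454 and 502 in sham and at 444, 390 and 416 in I/R libraries. There all I/R values were lower, with -0.57 (SE 0.30), or -0.20 without sham library 1.

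Positive log2 fold changes were found for 6 members, each with groups that overlapped. Samd9l, a restriction factor that blocks translation, was at 2488, 1018 and 1323 in sham and at 1856, 1596 and 1602 in I/R libraries. Like Ifit1 and Ifih1, it lay above sham libraries 2 and 3 in every I/R library, and its log2 difference of 0.17 (SE 0.28) was 0.53 (SE 0.19) with an adjusted p of 0.512 in limma without sham library 1. Without sham library 2 its sign turned, to -0.11. Bst2, or tetherin, which holds budding virus at the membrane, was at 627, 995 and 804 in sham and at 771, 843 and 870 in I/R libraries. Isg20, an exonuclease for RNA, was at 109, 76.5 and 57.4 in sham and at 110, 67.6 and 78.6 in I/R libraries. Ifi44 was at 218, 285 and 231 in sham and at 365, 178 and 221 in I/R libraries. For these 3 genes, and for Adar and Irf9, the sign turned when a single library was left out.

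**Figure D4:**
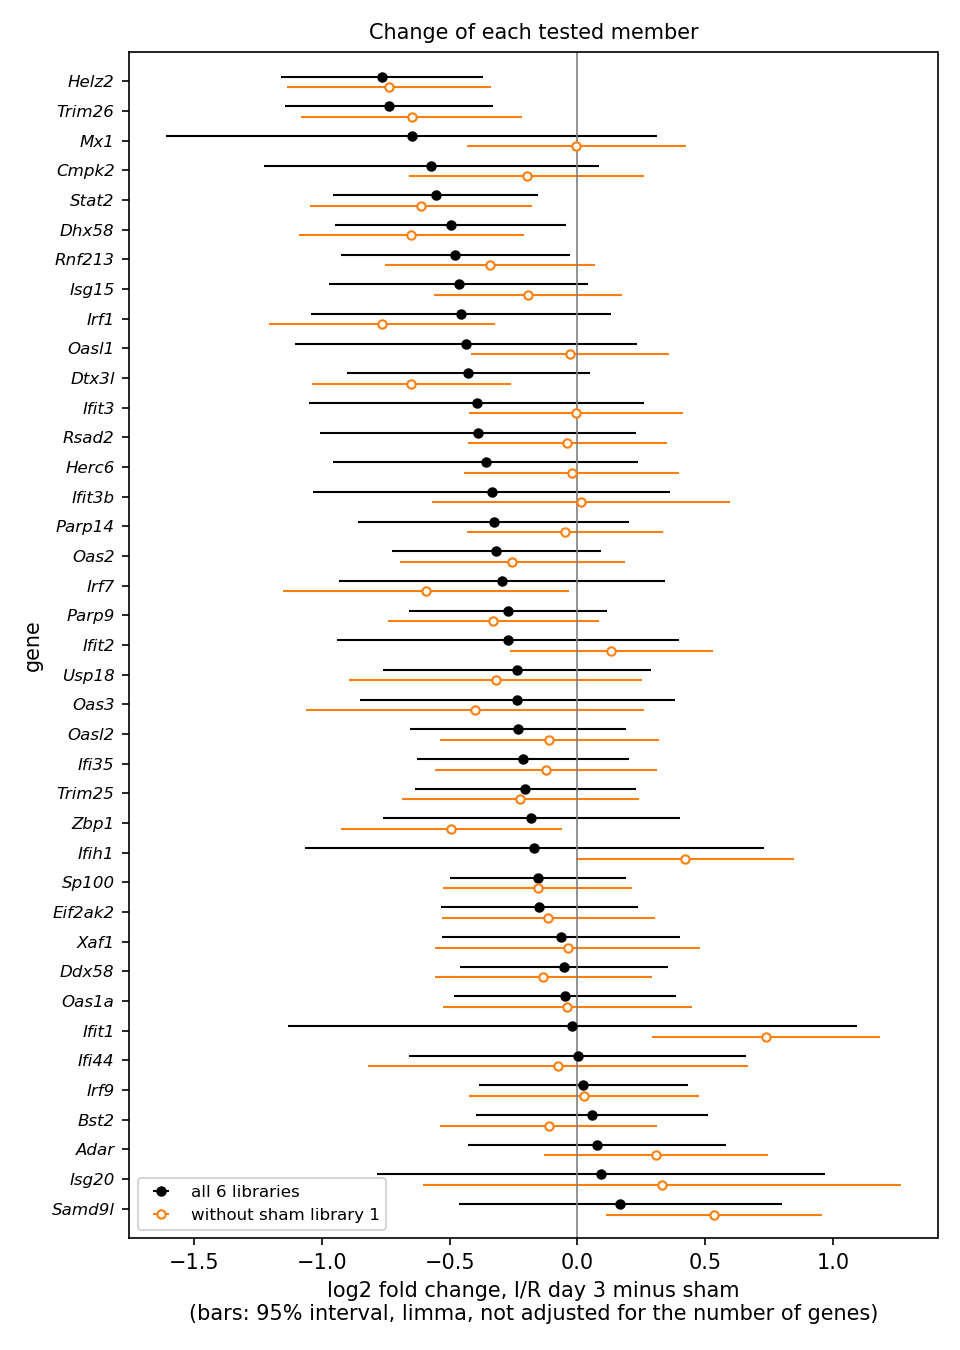
Log2 fold change of I/R minus sham (horizontal axis, points with 95% limma intervals not adjusted for the number of genes) for each tested member (vertical axis), with all 6 libraries in black and without sham library 1 in orange. Helz2, Trim26, Stat2 and Dhx58 stay below 0 in both fits, while Mx1, Oasl1, Rsad2 and Ifit3 move to about 0 and Ifit1, Ifih1 and Samd9l to the right.

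The genes upstream of the members were read from lists of interferon ligands, receptors, inhibitors and the induction pathway. Ifnb1, the gene for interferon beta, was the only 1 of 6 ligand genes abundant enough to be tested. It was at 846, 111 and 213 in sham and at 278, 261 and 249 in I/R libraries. Sham library 1 was the highest, sham libraries 2 and 3 the lowest and the I/R libraries in between, the same order as for Ifit1 and Ifih1. Its limma estimate was -0.05 on the log2 scale (SE 0.57, adjusted p = 0.998), and 0.77 (SE 0.32, adjusted p = 0.602) without sham library 1. Ifng, the gene for interferon gamma, was at 0 in 4 libraries and at 1.33 and 3.04 in the other 2, which is 2 counts each.

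Receptors and kinases had no common direction. None of the 8 passed the threshold, 4 were lower and 4 higher, and their median log2 fold change was 0.01. Ifnar1 had 0.16 (95% interval -0.22 to 0.54) and Ifnar2 0.05 (-0.39 to 0.49). Of 6 inhibitors 0 passed, and Socs3, which restrains cytokine receptors, reached 16098 in sham library 1 and spanned 7988 to 11463 elsewhere.

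In the induction pathway 12 of 14 genes had a negative log2 fold change, with a median of -0.18, against 47.9% of all tested genes on the negative side, and 0 passed. Those with the smallest unadjusted p were Tlr7, which senses RNA in endosomes, with -1.04 (SE 0.20, adjusted p = 0.329 in limma), and the interferon regulatory factors Irf8, at -0.61 (SE 0.17, adjusted p = 0.871), and Irf5, at -0.55 (SE 0.20, adjusted p = 0.985), all 3 without overlap between the groups (21.4% of the list against 4.48% of all tested genes). Irf8 and Irf5 are most strongly expressed in myeloid and B cells. The summed Kupffer cell markers overlapped between the groups, and 10 of the 12 had a negative change with a median of -0.17. Their part in the lower values was not tested.

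Of a further 37 interferon-stimulated genes outside the list 0 passed, and 25 had a negative log2 fold change. Their median was -0.05 where that of the members was -0.27, and -0.15 where that of the members was -0.11 without sham library 1. Non-overlapping groups were seen for 4 of them, or 10.8% against 4.48% of all tested genes, all lower, namely Gbp2, Irgm1, Tdrd7 and Apobec3. In Tnfsf10, a death ligand gene, the change was positive at 0.57 (SE 0.29, with an adjusted p of 0.985 in limma), while Uba7, which activates Isg15 for transfer, had -0.42 (SE 0.21) and Nlrc5, the activator of class I histocompatibility genes, -0.37 (SE 0.18). Ifi205 had its peak in sham library 1, at 11096 against 4255 to 6585 in the other 5 libraries, and it was named after its values were seen.

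I/R library 1 had the lowest value of 13 members, against 16.9% of all tested genes, and also the lowest Kupffer cell sum, at 163235 against 235329 to 273664 in the other libraries. Without it the median of the members was -0.26 and 33 of 39 were negative. Sham library 1 had 6638130 counts and was the second shallowest library, with 3 counts there corresponding to a normalised count of 4.89. Its Kupffer cell sum of 235329 was the lowest of the sham libraries, and its lymphatic sum of 25587 lay between the other sham libraries. Its stellate cell sum of 6194 was the highest of the sham libraries (4691 and 1497 in the others). Of that list, Col1a1 was at 1973 there against 246 to 974 in the other 5 libraries, Dcn at 833 against 221 to 770.0 and Pdgfrb at 137 against 17.9 to 88.3. Des was also highest there, at 106 against 27.2 to 66.9. Lrat and Reln were not. Lrat was at 121 there and at 129 in sham library 3. Reln, the most abundant gene of the list in every library, was at 3024 there, 4046 in sham library 2 and 5459 in I/R library 1. Gapdh was lowest in sham library 1, at 1134 against 1696 to 2367. Col1a1, Dcn, Pdgfrb and Gapdh were picked after their values were seen. The part of depth, cell makeup and RNA quality in the values of sham library 1 was not tested.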

How the data were processed

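The table was deposited by the authors as a signal of normalised counts for 22027 protein-coding genes in 6 libraries. Ribosomal RNA was depleted, per the labels' protocols. DESeq2 1.22.1, StringTie 1.3.3b, HISAT2 2.1.0 and Trim Galore 0.5.0 are the tools listed, with mm10 as build and no role for each, per the submitters' processing notes. With the smallest nonzero value of a library taken as 1 count, 100% of the values were whole (tolerance 0.01), and these recovered counts, which may derive from coverage, served edgeR and DESeq2. Libraries held 6297308 to 17086746 recovered counts, and no pair agreed within sampling noise (chi-square per degree of freedom 24.7 to 54.2). A floor of 3 counts covers counting error only.

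The comparison of 3 I/R with 3 sham libraries used limma 3.58.1 in R 4.3.3 on log2(value + 1), with an intensity trend, no covariate, two-sided tests and Benjamini-Hochberg adjustment over 13434 genes with a mean of at least 10. Fold changes are differences on that scale, and an exact permutation test of 3 against 3 cannot go below p = 0.1. edgeR 4.0.16 called 1 gene and DESeq2 1.42.0 called 42 of 16662. The code was tested on simulated data. Other alternatives were pseudocounts 0.5 and 5, filters, scalings, no trend, the replicate number as a block and leaving out each library. Exon lengths and gene positions come from GENCODE mouse release 21 (GRCm38, the assembly of mm10), which held 21886 of the gene identifiers, and promoters from RefSeq GRCm38.p6. Members and lists were chosen with earlier results of these data known. Per-library values are given for members whose groups do not overlap, those with the 10 smallest unadjusted p, 6 regulators and members with a positive change, and others were named after their values were seen.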

Additional observations from a re-analysis of the deposited data

How the results depend on the processing

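Across all tested genes limma called 4, and 1 with a mean of at least 50, 0 without the trend, 0 without sham library 1 and I/R library 1, and 0 to 22 when 1 library was left out. On recovered counts edgeR called 1 and DESeq2 42, and 18 and 159 without sham library 1. Of the members, 0 were called except in DESeq2, which called 1, or 2 without sham library 1. Fits without sham library 1 on recovered counts, and without both libraries numbered 1, were added after the data were seen. The members' median of -0.27 ran from -0.337 to -0.114 when 1 library was left out, and was -0.091 without both libraries numbered 1 and -0.119 (edgeR) and -0.12 (DESeq2) without sham library 1. The 10 members without overlap, all lower (25.6% against 4.48% of all genes), became 6 with equal totals (15.4% against 3.07%). When 1 library was left out they were 10 to 17 in either direction, or 25.6% to 43.6% against 17.4% to 24.1% of all genes. Without sham library 1 the 17, also in edgeR and DESeq2, were 14 lower and 3 higher (43.6% against 24.1% of all genes in limma). Without both libraries numbered 1 they were 21, or 17 lower and 4 higher (53.8% against 36.8%). The number with a negative change ran from 31 to 37 when 1 library was left out.

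No source used here says whether same-numbered sham and I/R libraries were paired. Their deviations from the group means correlated at -0.0204, -0.21 and -0.00138, and 0 sham libraries correlated best with their own number. With so few libraries in each group, such correlations cannot settle whether a day or preparation was shared. With the replicate number as a block 0 genes and 0 members were called and the median stayed at -0.27.

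Of 741 combinations of a member and an alternative, 686 kept direction and side of the threshold, 52 reversed and 3 passed the threshold, and 23 of 39 members never reversed. Without sham library 1, edgeR and DESeq2 gave 0.415 and 0.414 for Ifih1, 0.716 and 0.715 for Ifit1, 0.121 and 0.119 for Ifit2, 0.00792 and 0.00628 for Ifit3, 0.0246 and 0.0229 for Ifit3b, 0.00302 and 0.000998 for Mx1, -0.119 and -0.122 for Bst2, and -0.0297 and -0.0298 for Ifi44. Without both libraries numbered 1 the values were 0.329 for Ifih1, 0.693 for Ifit1, 0.124 for Ifit2, 0.112 for Ifit3, 0.0687 for Ifit3b, 0.071 for Oas1a, -0.063 for Bst2 and -0.368 for Ifi44. Equal totals gave 0.00251 for Ddx58, 0.0351 for Ifit1 and 0.00623 for Oas1a, and quantile normalisation 0.0771 for Ifit1, -0.0327 for Isg20 and -0.0363 for Ifi44. With 1 library left out the values ran from -0.557 to 0.42 for Ifih1, -0.533 to 0.737 for Ifit1, -0.567 to 0.132 for Ifit2, -0.604 to 0.0139 for Ifit3b, -0.218 to 0.0625 for Oas1a, -0.418 to 0.0353 for Oas3, -0.135 to 0.0533 for Ddx58, -0.0656 to 0.109 for Irf9, -0.141 to 0.307 for Adar, -0.129 to 0.33 for Isg20, -0.113 to 0.219 for Bst2, -0.11 to 0.534 for Samd9l, -0.291 to 0.224 for Ifi44 and -0.175 to 0.0742 for Xaf1. The cause was not tested. Depth set a floor of at most 4.89 for 3 counts, and the least abundant member, Isg20, had a mean of 83.1.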
